A study of Mus musculus with 16 samples.

Results

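The genes described here code for the actin and myosin machinery of muscle and for its relatives in the cytoskeleton of other cells. They were chosen by name alone, by a search of the deposited tables for myosin heavy and light chains, unconventional myosins, muscle actins, alpha-actinins, tropomyosins, calponins, transgelins, leiomodins, troponins, myomesins, filamin A, dystrophin, sarcoglycans, smoothelins, synaptopodins and LIM proteins of the Pdlim and Csrp families. The search found 31 genes among the 5171 distinct genes of the 4 tables. In the GENCODE M21 annotation 118 gene names match the same search, and the other 87 were in no table and were not analysed here.

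RNA came from whole colon tissue of male C57BL/6 mice, either wild type (WT) or with a Vil-Cre mediated KO of Smarcad1, a chromatin remodelling ATPase (KO). The villin promoter drives Cre only in the intestinal epithelium, while the sequenced tissue also holds muscle, nerve, connective tissue and blood cells. The floxed exons came from a single targeted line. All mice, controls included, had shared bedding and air with donor mice from another facility for an enriched microbiota, and RNA of all samples went through a precipitation that removes dextran sulphate sodium (DSS). Control groups held 3 WT and 3 KO mice, and colitis groups 5 WT and 5 KO mice. Colitis was induced with 1% DSS in the drinking water for 15 days, and the controls were untreated. The ages of the mice are not given in the sources used here. The design text of the series speaks of small intestine, whereas the labels of every sample say colon. Of the colon markers, 5 of 11 were in the tables, led by Car1 at 11.74 on the log2 reads-per-million (RPM) scale in WT control. Of the small intestine markers it was 2 of 10, with Otc at 5.36 and Fabp6 at 1.22 log2 RPM in WT control. The tables hold only genes called in a comparison, so these counts alone do not tell which tissue was sampled.

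Each value below is the authors' mean over a group on the log2 RPM scale, and the values of single libraries were not used. The means are therefore given without an SD, and the overlap of single mice between groups was not examined. Each table holds the genes that passed the authors' DESeq2 threshold in 1 comparison, and a gene is said to have risen or fallen only where it is in that table. Group library sizes, recovered from the lowest means, were between 8.005 and 10.1 M reads as geometric means. Of the 31 genes, 29 had a mean over 3 reads per library in all 4 groups. Smarcad1 itself stood at 5.77 log2 RPM in untreated WT and 4.59 in untreated KO, and at 5.68 and 4.55 in colitis.

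Smooth muscle shortens when myosin thick filaments pull on actin thin filaments. Calcium entering the cell activates myosin light chain kinase, which phosphorylates the regulatory light chain and so switches the motor on, and a phosphatase switches it off. Thin filaments are anchored in dense bodies, the counterpart of the Z discs of striated muscle. In the colon this machinery sits mostly in the muscle layers of the wall, and interstitial cells of Cajal and enteric neurons set its rhythm. Epithelial cells use other myosins in the brush border and at cell junctions, and leukocytes use their own set to move.

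Many genes of contractile proteins are switched on by serum response factor, which binds a short DNA element, the CArG box. The element was searched in the 250 bases before the transcription start of each gene in the RefSeq promoter sequences of build GRCm38.p6. The pattern searched was strict, CC and GG with only A or T between, at the length of the boxes below. It finds the same sites on either strand, although the letters of a single box can differ between strands. No other motif was searched. Promoter sequences were matched for 27 of the 31 genes, and those of Myh11, Myom2, Myo7b and Tpm3-rs7 were not. A box was present in 5 of the 27 (18.5%), compared with 52 of 3703 genes of the tables (1.4%) and 439 of 27025 genes with a promoter sequence (1.62%). Because these 5 include genes of smooth muscle, striated muscle and other cells, the boxes are shown with their flanks, read along the gene 5′ to 3′, with the box in capitals:
Myl9: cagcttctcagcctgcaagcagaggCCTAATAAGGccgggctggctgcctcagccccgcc
Acta1: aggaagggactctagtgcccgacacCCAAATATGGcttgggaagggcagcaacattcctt
Cnn2: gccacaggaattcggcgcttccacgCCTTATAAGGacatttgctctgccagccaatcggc
Myom1: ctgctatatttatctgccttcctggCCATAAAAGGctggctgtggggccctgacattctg
Myo1e: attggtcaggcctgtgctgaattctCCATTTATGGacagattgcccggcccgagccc

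The stretch of Myl9 lies at chr2:156775278-156775337 on the plus strand, with the box from 161 to 152 bases before the start. That of Acta1 lies at chr8:123894814-123894873 on the minus strand, with the box from 73 to 64 bases before the start. The stretches of Cnn2 (chr10:79988519-79988578), Myom1 (chr17:71019433-71019492) and Myo1e (chr9:70207293-70207349) are on the plus strand. Their boxes begin 56, 99 and 32 bases before the start. In the colitis comparisons below, Myl9, Myom1 and Myo1e were lower and Acta1 and Cnn2 higher, so the 5 genes with a box did not move in one direction. Of the smooth muscle filament and dense body genes with a promoter sequence, 1 of 6 had a box of the strict pattern in this window. Boxes with a deviating base or outside the window were not searched, so the count does not show that the other genes lack one. A match describes letters in this window and does not show that a factor binds there.

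Colitis was compared with control in each genotype. In WT, 19 of the 31 genes are in the table (61.3%), against 63.1% of all 5171 genes, and in KO 24 of 31 (77.4%) against 78.4%. Presence in a table was thus close to the background. By direction, 8 genes rose in WT (25.8%, background 36.6%) and 11 fell (35.5%, background 26.4%). In KO 9 rose (29.0%, background 44.8%) and 15 fell (48.4%, background 33.6%). Across the 31 genes the median of the log2 changes was −0.38 for WT and −0.47 for KO, beside 0.13 and 0.19 over all genes of the tables. All 31 were in at least 1 colitis table and 12 were in both, of which 6 rose and 6 fell. By their means, 20 genes were lower and 11 higher in colitis in both genotypes, beside 2307 and 2735 of all 5171 genes. The shared sign in 31 of 31 stands beside 97.5% of all genes.

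**Figure D1:**
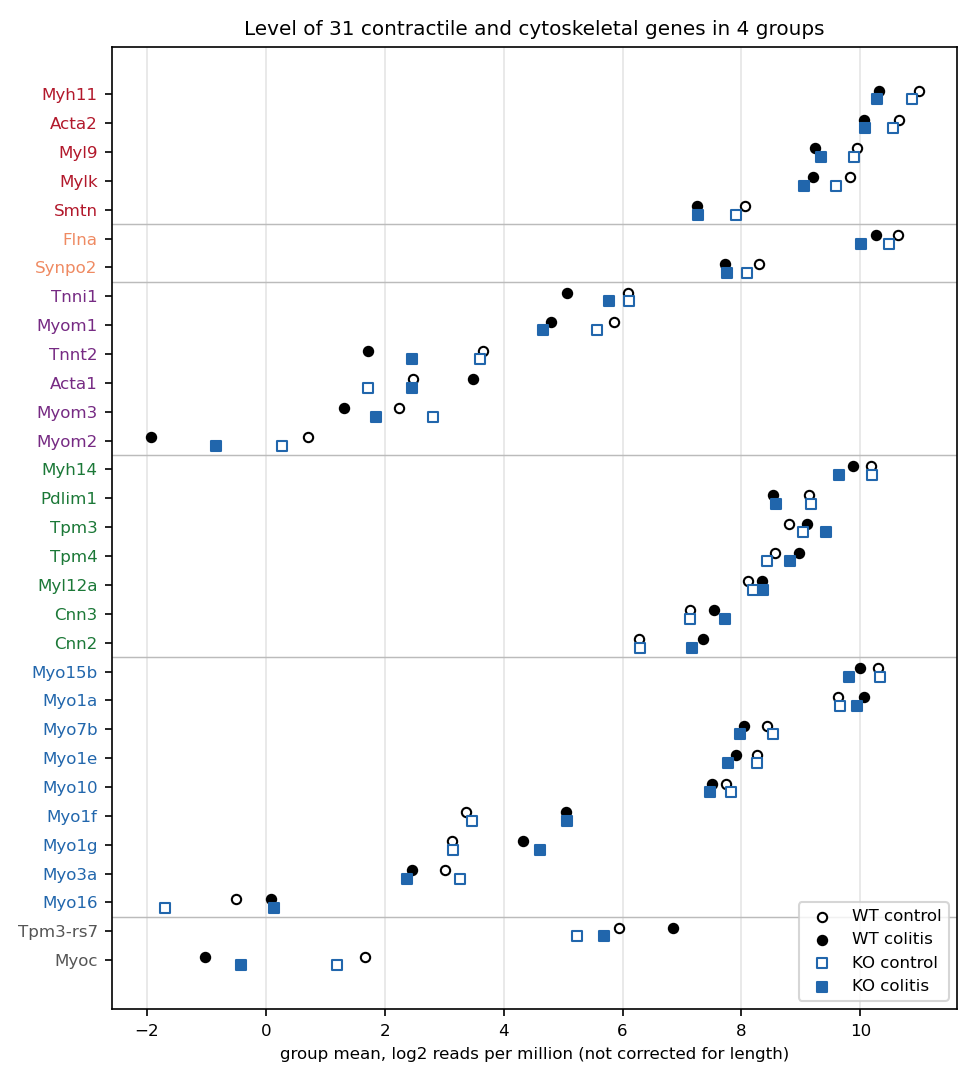
Group means of the 31 genes on the log2 RPM scale (horizontal axis, not corrected for length), with WT as circles, KO as squares, control open and colitis filled, and gene names coloured by role. The filled symbols of the 7 smooth muscle filament and dense body genes at the top all lie left of the open ones, while those of Cnn2, Myo1f and Myo1g lie to the right.

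The smooth muscle filament genes that were in the tables had lower means in colitis. Of 12 listed filament genes these were 5. The others, Actg2, Tpm1, Tpm2, Cnn1, Cald1, Tagln and Lmod1, were in no table and have no value here. In each genotype 4 of the 5 were in the table. This is 80.0%, beside 63.1% of all genes in WT and 78.4% in KO. All 5 means were lower in colitis in both genotypes, beside 2378 (WT) and 2365 (KO) of all 5171 genes. Myh11, the smooth muscle myosin heavy chain and the motor of contraction, had means of 10.98 and 10.86 in WT and KO control and of 10.32 and 10.27 in WT and KO colitis. It fell by 0.66 in WT and by 0.59 in KO on the log2 scale, to 63.3% and 66.6% of the control level. Its colitis means lay below both control means. Acta2, smooth muscle alpha-actin, had means of 10.64, 10.55, 10.06 and 10.07 in the same order. It fell by 0.59 in WT, and in KO, where it is not in the table, its mean was lower by 0.47 (−0.47). The 2 genes lie at chr16:14194527-14291408 and chr19:34241090-34255336 (GRCm38), both on the minus strand.

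The light chain and its kinase changed by a similar amount. Myl9, a regulatory light chain of smooth muscle myosin (chr2:156775420-156781658), had means of 9.95 in WT control, 9.90 in KO control, 9.24 in WT colitis and 9.33 in KO colitis. It fell by 0.57 in KO, to 67.5% of control, and the WT difference of −0.71 is larger although Myl9 is not in the WT table. Mylk, the kinase that phosphorylates this chain (chr16:34745210-35002420), had means of 9.83, 9.59, 9.21 and 9.06. It fell by 0.62 in WT and by 0.54 in KO. Smtn, smoothelin, a protein of contractile smooth muscle that binds actin filaments (chr11:3517523-3540612), had means of 8.06, 7.92, 7.26 and 7.26. It fell by 0.80 in WT and by 0.65 in KO, to 57.4% and 63.7% of control, the most of the 5. Smtn shares 16.3% of its exon bases with Gm11946 on the opposite strand, which was itself lower by 1.06 in WT (−1.06) and 0.91 in KO (−0.91), and whether the counting used strand is not given in the sources used here. Added together, the 5 genes amounted in WT to 5785 RPM without and 3695 RPM with colitis (63.9% left), and in KO to 5324 and 3646 (68.5% left).

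Genes of proteins that anchor the filaments were lower as well. Flna, filamin A, which crosslinks actin (chrX:74223461-74249820), had means of 10.64 in WT control, 10.48 in KO control, 10.26 in WT colitis and 10.01 in KO colitis. It fell by 0.47 in KO, and the WT difference was −0.38. Synpo2, an actin-binding protein of Z discs and dense bodies (chr3:123076519-123236149), had means of 8.30, 8.09, 7.72 and 7.75. It fell by 0.58 in WT, and the KO difference was −0.34. The other 9 of 11 listed dense body and adhesion genes, among them Des and Vcl, and all 6 dystrophin and sarcoglycan genes were in no table. Over the 7 genes of both groups the changes had a median of −0.62 (WT) and −0.54 (KO) on the log2 scale. In each genotype 7 of 7 were lower, beside 2378 (WT) and 2365 (KO) of all 5171 genes. None changed by as much as 1 on the log2 scale.

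In whole tissue, fewer muscle cells and less RNA per muscle cell cannot be told apart. Markers of other cell types moved beside the muscle genes. Of the interstitial cells of Cajal list 3 of 5 genes were in the tables and all 3 fell in both genotypes, with a summed level of 629 RPM (WT) and 654 RPM (KO) in control and of 341 and 421 RPM in colitis. Of the enteric neuron list 12 of 14 were in the tables and all 12 means were lower in colitis, with sums of 354, 305, 203 and 158 RPM. Of the fibroblast list 5 of 10 were in the tables and all 5 rose, with sums of 2555, 2479, 4935 and 3670 RPM. Of the leukocyte list 10 of 12 were in the tables and all 10 rose, with sums of 374, 371, 808 and 834 RPM. Of the epithelium list 2 of 13 were in the tables (Car1 and Slc26a3), with sums of 5582, 5111, 2797 and 2408 RPM. Car1 is not in the WT table. Of the vessel and pericyte list it was 1 of 10 (Kcnj8). Listed markers that are in no table have no value here, so none of these sums stands for a whole cell type. Of all 5171 genes, 2378 (WT) and 2365 (KO) had lower means in colitis, and 2793 and 2806 higher. None of the 7 enteric glia genes was in a table. No gene of these lists that was in a table was at or under 3 reads in all groups. RPM is a share of the library, so that a rise of other genes lowers it, and the part of these shifts in the fall of the muscle genes was not tested.

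**Figure D2:**
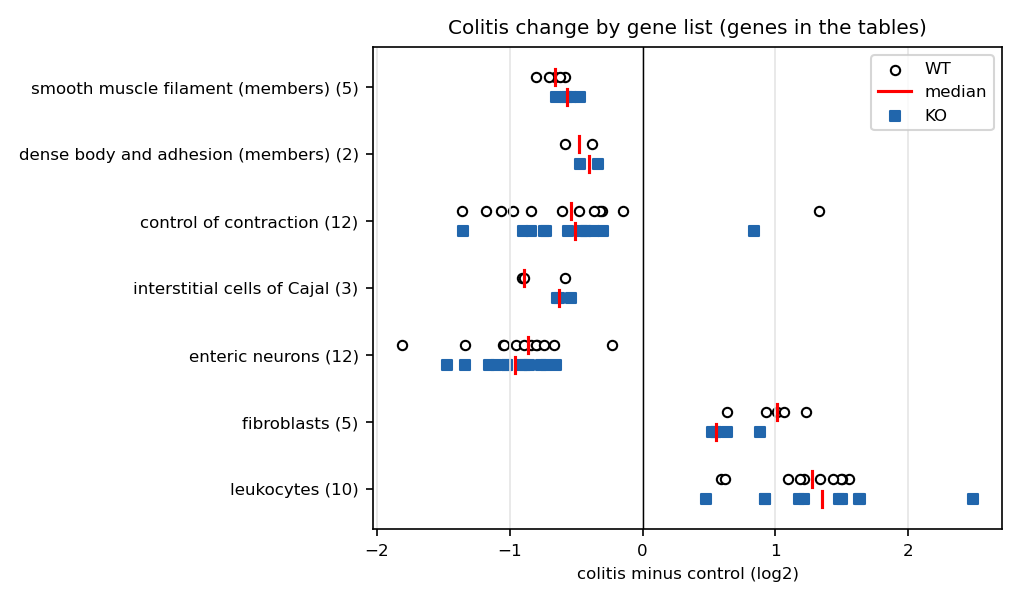
Difference of colitis minus control on the log2 scale (horizontal axis) for single genes of each list, WT as open circles and KO as squares, with a red bar at the list median and the number of genes in the tables in brackets. The filament genes lie between −0.80 and −0.47, the enteric neuron medians are −0.87 and −0.96, and the leukocyte medians are 1.28 and 1.35.

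Genes that control contraction were counted from a separate list of receptors, channels, kinases and phosphatases, of which 12 of 36 were in the tables. Of these 12, 1 rose and 7 fell in WT, beside 36.6% and 26.4% of all genes of the tables. In KO 1 rose and 10 fell, beside 44.8% and 33.6%. Their medians, −0.54 and −0.51, were near those of the filament genes. Chrm2 and Chrm3, the muscarinic receptors through which acetylcholine contracts the gut, fell by 1.07 and 1.36 in WT and by 0.73 and 0.84 in KO. Pln, phospholamban, which restrains the calcium pump of the sarcoplasmic reticulum, fell by 1.18 in WT and by 0.90 in KO. Cacnb2, a subunit of voltage-gated calcium channels, fell by 0.97 and 0.75, and Cacna1c, the pore of the L-type channel, fell by 0.56 in KO with a WT difference of −0.37. Ryr2, a calcium release channel, fell by 1.35 in KO and had a WT difference of −0.84. Ppp1r12b, a myosin phosphatase subunit, fell by 0.60 in WT and by 0.46 in KO, so that means on both the activating (Mylk) and the inactivating side were lower. The exception was Tacr1, the substance P receptor, which rose by 1.33 in WT and 0.84 in KO.

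Levels can be compared between genes only per length, and for this the RPM values were divided by the merged exon length of each gene. On this scale of RPM per kilobase (RPKM), the highest levels in WT control were those of Myl9 (850.5), Acta2 (728.4) and Myh11 (265.7). All 3 were smooth muscle filament genes. Next came Myo1a of the brush border at 212.1 RPKM, the cytoplasmic tropomyosin Tpm4 at 171.0 and Flna at 169.5. Mylk and Smtn were lower, at 80.8 and 60.9 RPKM. The level of Myl9 was 3.20 times that of Myh11, or 2.84 times with the longest transcript as length. Among genes of striated muscle type, Tnni1 had 19.0 RPKM, Myom1 5.54 and Acta1 3.63, and Myom2 had 0.184. The lowest level of all 31 was that of the unconventional myosin Myo16, at 0.0889 RPKM. Since no spread was computed, neighbours in this order, such as Tpm4 and Flna, cannot be told apart.

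Genes named for striated muscle were present at low level, and 5 of the 6 in the tables had lower means in colitis. In WT 4 of the 6 fell (66.7%, background 26.4%) and 1 rose (16.7%, background 36.6%). In KO 3 fell (50.0%, background 33.6%) and 0 rose (background 44.8%). The list held 36 genes, and the median of the 6 was −1.04 in WT and −0.93 in KO. Tnni1, a slow skeletal troponin I, the inhibitory subunit of the calcium switch on striated thin filaments, had means of 6.10 in WT control, 6.11 in KO control, 5.06 in WT colitis and 5.77 in KO colitis. It fell by 1.03 in WT, and in KO the difference was −0.34. WT colitis was the lowest of the 4 means, and KO colitis lay between it and the controls. Tnnt2, cardiac troponin T, had means of 3.66, 3.60, 1.73 and 2.46. It fell by 1.93 in WT and by 1.14 in KO, to 26.2% and 45.3% of control. Tnni1 and Tnnt2 are neighbours on chromosome 1, 25364 bp apart.

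Myomesins link myosin filaments in the M band of the sarcomere. Myom1 had means of 5.86 in WT control, 5.56 in KO control, 4.80 in WT colitis and 4.66 in KO colitis, and fell by 1.06 in WT and by 0.90 in KO. Myom3 had means of 2.23, 2.81, 1.32 and 1.86. It fell by 0.96 in KO, and the WT difference was −0.91. Myom2 fell in WT from a mean of 16.5 reads per library to 2.09, and stood at 11.8 reads in KO control and 5.52 in KO colitis. The WT colitis mean of Myom2 is under 3 reads, so no fold is given. Both Myom1 and Myom3 thus had lower means in colitis by nearly 1 on the log2 scale in each genotype.

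Acta1, skeletal muscle alpha-actin, went the other way from the rest of the striated list. Its means were 2.48 in WT control, 1.72 in KO control, 3.48 in WT colitis and 2.46 in KO colitis. It rose by 1.00 in WT, and the KO difference was 0.74. Its means in WT were from 56.4 to 89.5 reads per library, about 2.01 times higher in colitis on the RPM scale. Acta1 codes for a protein nearly identical to that of Acta2, whose mean was far higher and fell, and the uniquely mapped reads kept by the authors limit but may not remove reads shared between them.

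Of the cytoplasmic relatives of these proteins in the tables, 5 of 7 had higher means in colitis, beside 2793 (WT) and 2806 (KO) of all 5171 genes. Of 22 listed genes 7 were in the tables. The median of their log2 changes was 0.29 for WT and 0.38 for KO, beside 0.13 and 0.19 over all genes. In WT 4 rose (57.1%, background 36.6%) and 1 fell (14.3%, background 26.4%). In KO 4 rose (57.1%, background 44.8%) and 2 fell (28.6%, background 33.6%). Cnn2, a calponin of many non-muscle cells including leukocytes, had means of 6.27 in WT control, 6.29 in KO control, 7.36 in WT colitis and 7.17 in KO colitis. It rose by 1.08 in WT and 0.87 in KO. Cnn3, another calponin, had means of 7.13, 7.14, 7.54 and 7.73. It rose by 0.40 in WT and 0.59 in KO. It shares 17.7% of its exon bases with Gm42928 on the opposite strand, for which the differences were 0.20 and 0.41. Both calponins lay higher in each colitis group than in either control group.

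The tropomyosins, which lie along actin filaments and govern access of myosin, rose as far as they were listed. Tpm4 had means of 8.56 in WT control, 8.43 in KO control, 8.96 in WT colitis and 8.81 in KO colitis, and rose by 0.41 in WT and 0.38 in KO. Tpm3 had means of 8.81, 9.03, 9.10 and 9.43. It rose by 0.40 in KO, and the WT difference was 0.29. Tpm3-rs7, a related sequence of Tpm3 on chromosome 14, had means of 5.94, 5.23, 6.84 and 5.68. It rose by 0.45 in KO, while the larger WT difference of 0.90 is not in the WT table. Reads of Tpm3 and Tpm3-rs7 may be split between the copies, and their values are uncertain for that reason. Myl12a, a regulatory light chain of non-muscle myosin, had means of 8.10, 8.19, 8.34 and 8.37. It rose by 0.24 in WT, and the KO difference of 0.17 is smaller than the median of all genes of the tables, 0.19. It shares 13.75% of its exon bases with Myl12b.

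Among the cytoplasmic genes 2 were lower. Pdlim1, a LIM protein that binds alpha-actinin, had means of 9.13 in WT control, 9.17 in KO control, 8.52 in WT colitis and 8.59 in KO colitis, and fell by 0.60 in WT and by 0.59 in KO. Myh14, a heavy chain of non-muscle myosin found in epithelium, had means of 10.18, 10.20, 9.88 and 9.64. It fell by 0.56 in KO, and the WT difference was −0.29. Myl12a and the striated gene Myom1 lie 16642 bp apart on chromosome 17 by the coordinates of the tables and moved in opposite directions. In GENCODE M21, where Myom1 starts further upstream, it overlaps 6.16% of the exon bases of Myl12a on the opposite strand.

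The unconventional myosins carry cargo or link membranes to actin and make no thick filaments. Of 25 listed genes 9 were in the tables, all 9 in the KO table (background 78.4%) and 3 in the WT table (background 63.1%). The myosins of leukocytes rose in both genotypes. Myo1f, which works in neutrophils and other leukocytes, had means of 3.36 in WT control, 3.46 in KO control, 5.05 in WT colitis and 5.06 in KO colitis. It rose by 1.69 in WT and 1.60 in KO, or 3.23-fold and 3.03-fold. Myo1g, a myosin of blood cells, had means of 3.13, 3.15, 4.33 and 4.61, and rose by 1.21 in WT and 1.47 in KO. The general leukocyte gene Ptprc (CD45) rose beside them by 1.34 and 1.48.

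Myosins of the brush border and epithelium moved both ways. Myo1a, which tethers microvillar actin to the membrane, had means of 9.62 in WT control, 9.66 in KO control, 10.07 in WT colitis and 9.95 in KO colitis. It rose by 0.45 in WT and 0.29 in KO. Myo7b, a motor at the tips of microvilli, had means of 8.44, 8.53, 8.05 and 7.97. It fell by 0.56 in KO, and the WT difference was −0.39. Myo15b had means of 10.30, 10.33, 9.99 and 9.81, and fell by 0.53 in KO with a WT difference of −0.31. Thus the 2 named brush border motors, Myo1a and Myo7b, went in opposite directions in the same tissue.

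The remaining unconventional myosins were lower in colitis, apart from Myo16. Myo1e, which acts in endocytosis and cell adhesion, had means of 8.26 in WT control, 8.26 in KO control, 7.91 in WT colitis and 7.77 in KO colitis. It fell by 0.48 in KO, and the WT difference was −0.35. Myo10, a motor of filopodia, fell by 0.36 in KO, and its WT difference was −0.24. Myo3a, a class of myosin with a kinase domain, fell by 0.89 in KO from a mean of 3.27, with a WT difference of −0.56. Myo16 rose in KO from a mean of 3.00 reads per library, at the floor, to 10.9, and stood at 7.11 reads in WT control and 8.50 in WT colitis. No fold is given for Myo16 for that reason.

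Myoc, myocilin, matched the search by its name only, being a secreted glycoprotein and not a myosin. It had means of 1.66 in WT control, 1.20 in KO control, −1.02 in WT colitis and −0.42 in KO colitis. It fell by 2.68 in WT, and the KO difference was −1.61. These means correspond to 32.0, 22.4, 3.96 and 7.39 reads per library, so the colitis values rest on few reads.

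**Figure D3:**
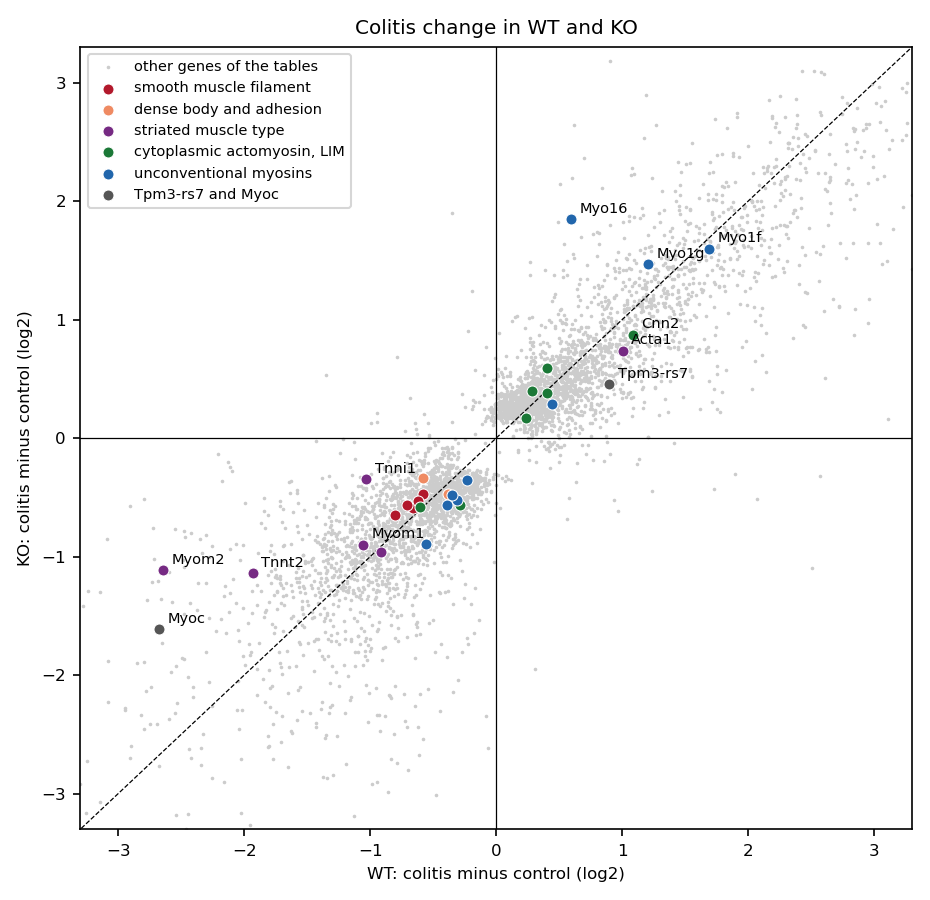
Difference of colitis minus control on the log2 scale in WT (horizontal axis) and KO (vertical axis), with the 31 genes coloured by role, other genes of the tables as grey dots and equality as a dashed line. Genes with larger changes than the axes span are not drawn. The smooth muscle filament genes form a cluster between −0.80 and −0.47, and Tnni1, Tnnt2, Myom2 and Myoc lie above the line, with means lower by less in KO. The points of Myom2 and Myo16 include a mean under or at 3 reads.

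Changes of at least 1 on the log2 scale were few. In WT 4 of 31 genes were higher by that much (12.9%, background 18.4%) and 5 were lower (16.1%, background 13.0%). The 4 were Myo1f, Myo1g, Cnn2 and Acta1, and the 5 were Tnnt2, Myom1, Tnni1, Myom2 and Myoc. In KO 3 were higher (9.68%, background 16.0%) and 3 lower (9.68%, background 12.6%). The 3 that were higher were Myo1f, Myo1g and Myo16, and the 3 that were lower were Tnnt2, Myom2 and Myoc. The counts use the group means as deposited, including the WT colitis mean of Myom2 and the KO control mean of Myo16, which are under and at the floor.

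KO was then compared with WT. In control, 0 of the 31 genes are in the authors' DESeq2 table of KO against WT, where 0.89% of all genes are. In colitis it was also 0 of 31, beside 1.08%. Unadjusted p-values were not used here. The difference of KO minus WT was under 0.3 in absolute log2 value for 25 of the 31 genes in control and for 23 in colitis. Its median over the 31 genes was −0.00 in control and 0.00 in colitis, beside 0.00 and −0.01 over all genes of the tables. Most of these genes therefore had means close together in the genotypes, but absence from a table does not show that levels were equal. The share of all genes under 0.3 was not computed, so whether the 31 differ less than other genes is not shown.

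The smooth muscle genes that were in the tables had slightly lower means in KO control. All 7 filament and dense body genes were lower there than in WT control, by log2 differences from −0.05 (Myl9) to −0.24 (Mylk). Of all 5171 genes 2536 were lower in KO control, and none of the 7 is in the table of that comparison. In colitis the differences ran from −0.24 (Flna) to 0.09 (Myl9), with 4 higher and 3 lower. The 12 enteric neuron genes in the tables were also all lower in KO control, with a median of −0.24. The 5 fibroblast genes in the tables were all lower in KO colitis than in WT colitis, with a median of −0.43. In that comparison 2722 of all 5171 genes were lower. Whether these shifts in other cell types bear on the muscle genes was not tested.

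The colitis differences were compared between genotypes from the same 4 means, whether or not a gene was in a table. The 5 filament genes were lower by less in KO than in WT, with differences of the changes from 0.07 (Myh11) to 0.15 (Smtn), and Synpo2 by 0.24. Flna was the exception at −0.09. Over all 31 genes, 12 of the 20 that were lower in both genotypes were lower by less in KO, beside 47.6% of all genes that were lower in both. This background share depends on which table genes come from, at 75.0% for genes in the WT table and 31.5% for those in the KO table. Of the 11 that were higher in both, 7 were higher by less in KO, beside 53.2%. Values of single mice were not used, so these differences were not tested.

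The colitis change differed most between genotypes in the group means of Myom2, Myo16, Myoc, Tnnt2 and Tnni1. For Myom2 and Myo16 this difference includes a mean under or at the floor of 3 reads, so its size is not given. Myoc had a difference of KO minus WT change of 1.06, with 3.96 reads per library in WT colitis. Tnnt2 had 0.79 and Tnni1 0.69, both with means lower by less in KO, where Tnni1 is not in the colitis table. In colitis the means of Tnnt2 and Tnni1 were higher in KO than in WT by 0.73 and 0.70, while in control they differed by −0.06 and 0.01. Neither is in the table of KO against WT in colitis. By the group means, a difference of at least 1 in colitis was found for 2 genes in the lower direction (Acta1 and Tpm3-rs7, background 2.9%) and for 1 in the higher (Myom2, background 1.49%). A difference of that size is not shown for Myom2, whose WT colitis mean is under the floor. In control it was found for 0 in the higher (background 1.08%) and 1 in the lower direction (Myo16, background 0.735%), and the KO control mean of Myo16 is at the floor.

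Among the 31 genes 2 were lower in KO than in WT in both conditions by at least 0.5. The share of all genes that were so was not computed. Acta1 differed by −0.76 in control and −1.03 in colitis, and Tpm3-rs7 by −0.72 and −1.16. Both values are uncertain, as reads may be split with a close relative. Tpm3 differed by 0.22 and 0.33 in the same order, and Acta2 by −0.09 and 0.02. Myom3 was higher in KO by 0.58 and 0.53. None of these genes is in a table of KO against WT.

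**Figure D4:**
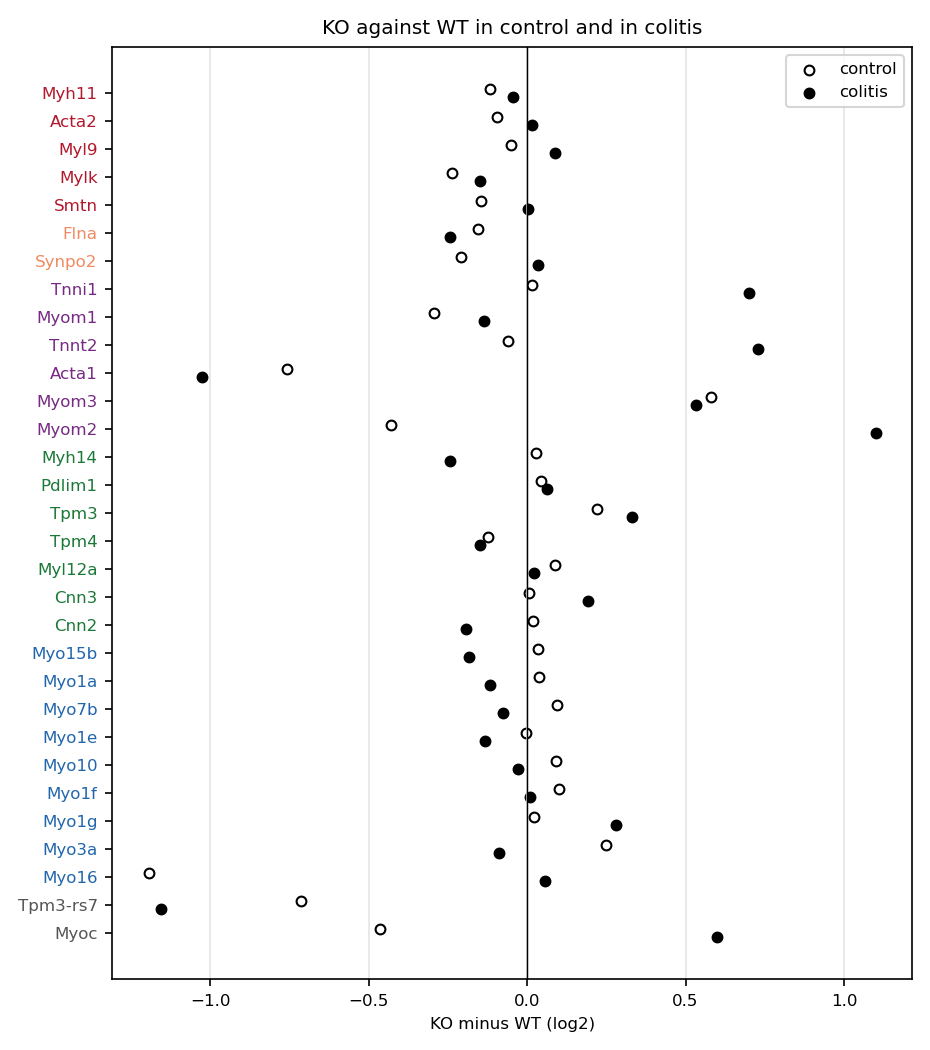
Difference of KO minus WT on the log2 scale (horizontal axis) for each of the 31 genes, in control as open circles and in colitis as filled circles, with gene names coloured by role. Most points lie within 0.3 of 0. Acta1 and Tpm3-rs7, which may share reads with a close relative, lie to the left in both conditions. Tnni1 and Tnnt2 lie near 0 in control and at 0.70 and 0.73 in colitis. The colitis point of Myom2 and the control point of Myo16 include a mean under or at 3 reads.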

How the data were processed

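Whole colon RNA of 16 mice was sequenced on the BGISEQ-500, as single-end reads per the labels and as paired-end reads per the methods of the study. The authors mapped reads to GRCm38 with HISAT2 2.1.0, removed ribosomal RNA reads, which had contaminated some libraries not named in the labels, and counted uniquely mapped reads over exons of merged transcripts in SeqMonk. Whether counting used strand is not given in the sources used here. The 4 deposited tables hold genes at an adjusted p-value under 0.05 in the authors' DESeq2 test of 2 groups, with that p-value, which was not used here. Their values are the authors' group means of log2 RPM. The same gene had identical means in every table (largest difference 0). A count of 0 had been written as 0.9 read.

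Changes are differences of these means, with no test, since the tables analysed do not resolve replicates and values of single libraries were not used. Library sizes were recovered from the steps of the lowest means. A check on simulated data used the same 0.9 read for a count of 0, so it tested the calculation and not that value. The floor is 3 reads per library. These limits cover counting error only. Exon lengths and overlaps came from GENCODE M21, where 26 of 31 genes had the same coordinates. The genes named were all filament and anchoring genes, the 10 largest changes per colitis comparison with means over 3 reads, and the 5 largest differences of response. The remaining genes of the 31 were named after their values were seen, so that each is described. The genes and lists were chosen with earlier results of these data known. Python 3.11.15, pandas 2.3.3 and numpy 2.4.6 were used. Alternatives were log2(RPM + 1), a filter of 3 reads, centring on the median of all genes, listed genes only, a threshold of 0.5 and, chosen after seeing the data, leaving out genes that share sequence with a close relative.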

Additional observations from a re-analysis of the deposited data

How the results depend on the processing

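As values of single libraries were not used, a log2 value counted as moved past 0.2 and a count past 1.5 times. Under the alternatives tried, 42 summary values stayed and 14 moved, and of the values of single genes 296 stayed and 14 moved. Among single genes the sign turned only for Myl12a in KO, when changes were centred on the median of all genes (0.13 in WT and 0.19 in KO). The medians of KO against WT and of the difference of response lie near 0 and crossed it under some alternatives. The WT median was −0.585 over the genes in the WT table. With log2(RPM + 1), the number of genes with an absolute change of at least 1 was 3 in KO colitis against control, 0 in KO against WT in control, 1 in KO against WT in colitis and 0 for the difference of response. With a mean over 3 reads required, it was 0 for KO against WT in control and 1 for the difference of response. Over genes in both colitis tables the difference of response counted 0, and without the genes that share sequence KO against WT in colitis counted 1. At a threshold of 0.5 the counts were 20 in WT, 20 in KO, 4 and 7 for KO against WT in control and colitis, and 5 for the difference of response. KO against WT gave no value over listed genes, as no gene is listed. No paired analysis was possible because the tables analysed hold group means only, and alternatives that leave out single libraries were not run, since values of single libraries were not used here. Depth limits Myom2, Myo16 and Myoc.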

Other observations

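The connective tissue genes moved against the muscle genes in these group means. The collagen genes Col1a1, Col1a2 and Col3a1, the main fibrillar collagens of the colon wall, rose by 1.23, 1.01 and 0.93 in WT colitis and by 0.56, 0.55 and 0.53 in KO colitis. The small proteoglycans Dcn and Lum, which bind collagen fibrils, rose by 0.64 and 1.07 in WT and by 0.64 and 0.89 in KO. In KO colitis the 3 collagens were lower than in WT colitis by log2 differences of −0.63, −0.43 and −0.45, and none of them is in the table of KO against WT in colitis.

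Pacemaker and nerve genes of the muscle wall also had lower means in colitis. Kit and Ano1, the receptor and the chloride channel that mark interstitial cells of Cajal, fell by 0.91 and 0.89 in WT and by 0.63 and 0.64 in KO. Nos1, which makes the nitric oxide that relaxes gut muscle, fell by 1.05 in WT and by 1.47 in KO. Ret, a receptor of the enteric nervous system, fell by 0.77 in KO and had a WT difference of −0.23. It is in the table of KO against WT in colitis, with a difference of −0.66, and was the only gene of the cell type lists in that table.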
